A study of Mus musculus with 14 samples.

Results

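The genes described here encode cytokines, soluble or decoy antagonists and a co-receptor of the interleukin-1 family, together with the inflammasome that matures its cytokines. They were chosen by name and are Il1b, Il1a, Il1rn, Il1r2, Il1rap, Il18, Il18bp, Nlrp3, Casp1 and Pycard, which makes 10 of the 24556 genes in the table. All 10 had a row and passed the filter on low values.

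Interleukin-1 beta, from Il1b, and interleukin-18, from Il18, are made as inactive precursors and are cut to their active forms by caspase-1, from Casp1. Caspase-1 is activated on inflammasomes, complexes in which a sensor such as NLRP3 binds the adaptor ASC, from Pycard. Interleukin-1 signals through a receptor pair that includes the co-receptor from Il1rap, and it is held in check by the receptor antagonist from Il1rn and by the decoy receptor from Il1r2. Macrophages are a main source of these proteins in tumours, and transcript levels say nothing of how much precursor is cut or released.

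RNA was sequenced from F4/80-positive cells, a macrophage fraction taken on magnetic columns in a pair of successive rounds, from tumours of 4T1 cells in Balb/c mice. 4T1 is a mammary carcinoma line of that strain, and it was injected into the fat pad. Only the tumour cells met the compound: before injection they were cultured for 5 days with DMSO, the solvent, or with 5 µM GSK269962A, a small-molecule kinase inhibitor. The groups are DMSO day 8 (3 libraries), GSK day 8 (3), DMSO day 14 (4) and GSK day 14 (4), where the day counts from injection and the names refer to the pre-treatment of the tumour cells. Age, sex and any genotype of the mice beyond the strain are not given in the labels used here.

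Values are the authors' log2 expression values, with no counts behind them here, so sequencing depth is unknown. The labels number the libraries of a group but do not say that each came from its own mouse, so p-values measure the spread between these samples, which may be technical. In such bulk fractions fewer cells of a type and less RNA per cell cannot be told apart. The fractions carried macrophage genes: the mean over 16 pan-macrophage markers lay between 11.98 and 12.58 in all 14 libraries. Adgre1, which encodes F4/80, had 9.20 ± 0.18, 9.48 ± 0.50, 9.49 ± 0.40 and 10.19 ± 0.11 (SD, n = 3, 3, 4 and 4) in DMSO day 8, GSK day 8, DMSO day 14 and GSK day 14. Of 17 neutrophil markers 15 had a row. Ly6g lay between 2.54 and 2.96, and Mpo and Elane were near -1.86 and -2.06 in every group. Some others on the list were high: group means ran from 10.11 to 11.08 for Retnlg, 9.20 to 10.08 for Trem1, 8.47 to 9.83 for Hdc, 8.18 to 9.39 for G0s2, 6.43 to 7.64 for Mmp8 and 6.46 to 6.98 for Csf3r. The remaining markers with a row are not given singly. Over all 15 the mean was 4.72, 4.65, 4.78 and 4.70 in DMSO day 8, GSK day 8, DMSO day 14 and GSK day 14. Libraries of 1 group correlated at r = 0.967 to 0.993 over genes. A pair of overlapping gene models at ribosomal RNA sequence, AY036118 and Gm42418, splits the libraries, each being high where the other is low. This is called the ribosomal RNA split below. AY036118 was high in 9 libraries: 1 DMSO day 8, 2 GSK day 8, 2 DMSO day 14 and 4 GSK day 14 libraries. Changes on day 14 are therefore also given among the libraries with AY036118 high, which for that day are 4 GSK and 2 DMSO.

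Genes were compared with limma on the 11886 genes with an unlogged value of at least 10 in at least 3 libraries, and a gene was called when its p, adjusted over all of these genes by the Benjamini-Hochberg method, was under 0.05. Errors given as SE are those of that fit, and brackets around a range of a log2 difference hold its 95% interval. The transformation behind the values is not given, and low genes hardly vary in the table: the median range over 14 libraries was 0.0741 for 6421 genes with a mean below 0 and 1.004 for 3691 genes with a mean of at least 8. Differences of Il1a and Il1rap, the lowest members, may therefore be understated.

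The promoters of 4 genes on which the results turn are shown from 250 bases before to 50 bases after the start of transcription, on the gene's own strand, 5′ to 3′, from RefSeq on GRCm38.p6. They belong to Il1b and Il1rn, the cytokine and its antagonist, and to Casp1 and Casp4, neighbouring caspase genes. Casp1 and Casp4 lie on the same strand of chromosome 9 with 1562 bases between them. Il1b is read at chr2:129371090-129371389 on the minus strand, Il1rn at chr2:24336610-24336909 on the plus strand, Casp1 at chr9:5298267-5298566 on the plus strand and Casp4 at chr9:5308599-5308898 on the plus strand. Capitals mark the letters found in a search for 4 motifs: a TATAAA box in Il1b, an AP-1 site in Il1rn and a pair of overlapping NF-kB matches in Casp4.
Il1b: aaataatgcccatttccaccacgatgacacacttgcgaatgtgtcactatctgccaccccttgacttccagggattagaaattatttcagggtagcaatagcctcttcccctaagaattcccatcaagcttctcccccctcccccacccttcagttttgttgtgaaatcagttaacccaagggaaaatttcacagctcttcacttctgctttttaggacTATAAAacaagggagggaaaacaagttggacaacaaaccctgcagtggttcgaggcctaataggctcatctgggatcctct
Il1rn: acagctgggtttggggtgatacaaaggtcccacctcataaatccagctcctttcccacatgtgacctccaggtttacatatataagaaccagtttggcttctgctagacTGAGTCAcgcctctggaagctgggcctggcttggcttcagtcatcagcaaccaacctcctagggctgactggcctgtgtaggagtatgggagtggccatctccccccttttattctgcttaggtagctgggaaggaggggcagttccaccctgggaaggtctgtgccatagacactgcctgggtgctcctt
Casp1: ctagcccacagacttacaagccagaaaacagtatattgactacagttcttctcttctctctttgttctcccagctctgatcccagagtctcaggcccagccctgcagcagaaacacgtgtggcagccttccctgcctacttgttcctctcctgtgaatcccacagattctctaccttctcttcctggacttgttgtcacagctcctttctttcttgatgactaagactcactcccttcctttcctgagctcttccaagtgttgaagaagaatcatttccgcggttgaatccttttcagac
Casp4: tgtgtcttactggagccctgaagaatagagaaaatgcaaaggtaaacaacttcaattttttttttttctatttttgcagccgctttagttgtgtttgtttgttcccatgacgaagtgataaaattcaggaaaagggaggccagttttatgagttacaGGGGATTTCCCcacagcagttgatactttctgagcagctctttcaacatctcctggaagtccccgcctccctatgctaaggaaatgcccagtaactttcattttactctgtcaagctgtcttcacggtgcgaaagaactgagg

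The motifs searched were the NF-kB consensus, the AP-1 site TGANTCA and the C/EBP site TTGCNNAA on both strands, and TATAAA on the gene's strand. All 10 members had a promoter in the RefSeq table, with 13 windows in all, and the motifs were counted in 32851 windows of the same length from 27025 genes. TATAAA stood 31 bases before the start of Il1b and 32 before that of Il1a, while 8.32% of all windows hold it. The letters TGACTCA stood 12 bases before the start of Il1a and TGAGTCA 141 before the start of Il1rn shown, and 7.81% of windows hold the AP-1 site. An NF-kB match, held by 4.51% of windows, stood 186 bases before 1 start of Nlrp3 and, as overlapping matches, 93 and 92 bases before the start of Casp4 shown. The C/EBP site, held by 10.8%, began 49 bases before the start of Il18bp, 142 before that of Pycard and 36 before that of Nlrc4. None of these letters were in the windows of Casp1, Il1r2, Il1rap and Il18, or in those at the downstream starts of Il1rn. This says nothing of factors that may bind there. Which start of Il1rn was used in these cells was not analysed.

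The members covered a wide range of levels. Per kb of the principal transcript, Il1b was highest in all 4 groups, with log2 levels per kb of 12.49 ± 0.20, 13.03 ± 0.31, 12.79 ± 0.18 and 13.48 ± 0.19 (SD, n = 3, 3, 4 and 4). Il1rn came next (9.86 to 10.46 as group means per kb) and then Il1r2 (9.03 to 9.30), so the cytokine's antagonist and decoy were the next most abundant members. Il18bp (7.96 to 8.74 per kb) and Il18 (7.46 to 7.63) followed, then Pycard (5.90 to 6.43), Nlrp3 (5.28 to 5.94) and Casp1 (4.47 to 5.61). Il1a (2.09 to 2.54 per kb) and Il1rap (1.95 to 2.39) were lowest, and their order differed between groups. With the length of all exons in place of the principal transcript, Il1rn and Il1r2 changed places in DMSO day 8, and so did Il18 and Il18bp. By that length Il1rap was lowest in all 4 groups (0.62 to 1.06, against 2.09 to 2.54 for Il1a).

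**Figure D1:**
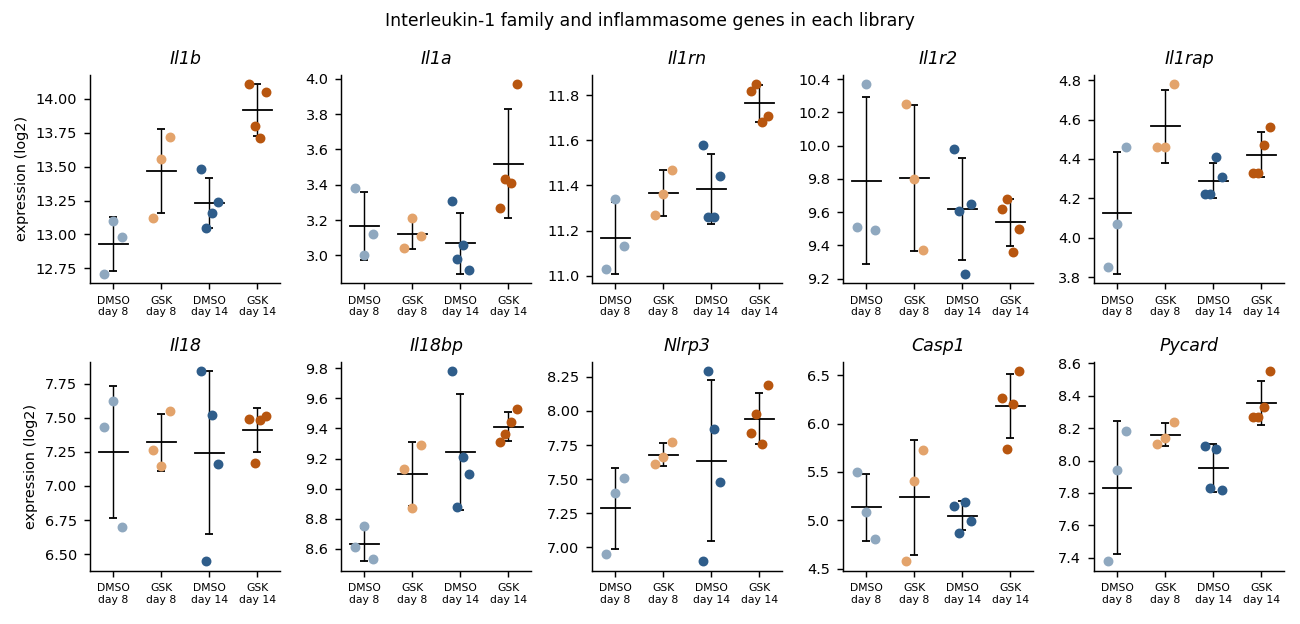
Expression (authors' log2 values, y axis, own scale per panel) of the 10 genes in each library of the 4 groups. Points are libraries, horizontal lines group means and bars the SD (n = 3 per group on day 8 and 4 on day 14). All GSK day 14 libraries sit above DMSO day 14 for Casp1 (by 0.55), Il1b (0.23), Pycard (0.17) and Il1rn (0.10).

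Pre-treatment of the tumour cells was compared first on day 14. Macrophage fractions of GSK tumours had more Casp1, 2.20-fold, and more Il1b, 1.61-fold, and these were the members called: 2 of 10 were higher and 0 lower, where 5.10% of all genes were called higher and 5.73% lower. In all 9 of 10 members differed upwards, with a median log2 difference of 0.34 against 0.02 over all genes tested, and 5 had an unadjusted p under 0.05, as had 27.3% of all genes in either direction. GSK and DMSO libraries did not overlap for 4 members, Il1b, Il1rn, Casp1 and Pycard, all with GSK higher, as for 11.2% of all genes. On day 8 none of the 10 was called in limma, where 0.194% of all genes were called, and 3 (Il1b, Il1rap and Il18bp) had an unadjusted p under 0.05, as had 16.3% of all genes. There too 9 of 10 differed upwards (median 0.26 against 0.02), and libraries did not overlap for Il1b, Il18bp and Nlrp3, as for 8.01% of all genes with GSK higher. Averaged over both days Il1b, Casp1 and Il1rn were called higher and none lower, where 6.73% of all genes were called higher and 7.77% lower.

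**Figure D2:**
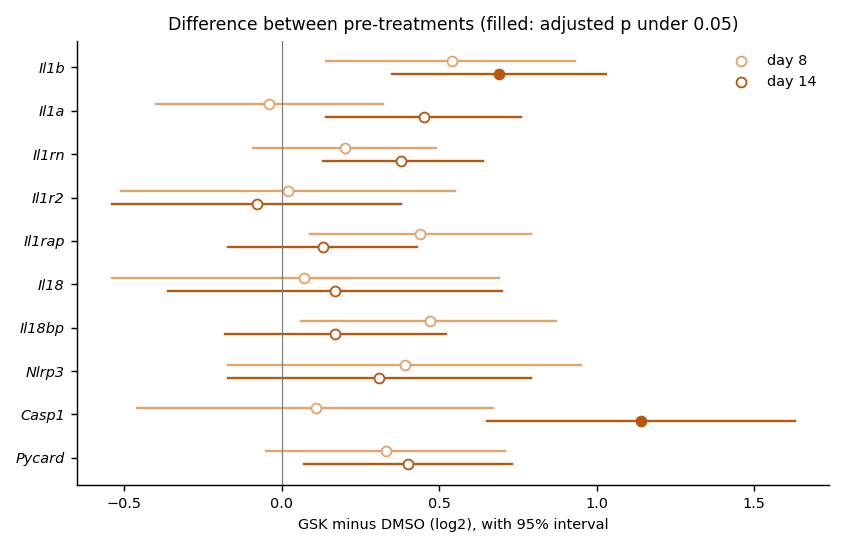
Log2 difference between GSK and DMSO groups for each member on day 8 and on day 14 (x axis), with the 95% interval of the limma fit as a line and a filled point where the adjusted p is under 0.05. Only Il1b (0.69) and Casp1 (1.14) on day 14 are filled, and the interval of Casp1 on day 8 spans 0.

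Il1b (ENSMUSG00000027398, GRCm38 chromosome 2, 129364570 to 129371139, minus strand) was the most abundant member and the one that separated the pre-treatments on both days. On day 8 its log2 values were 12.71, 13.10 and 12.98 in DMSO and 13.12, 13.56 and 13.72 in GSK libraries 1 to 3. On day 14 they were 13.48, 13.05, 13.16 and 13.24 in DMSO and 14.11, 13.80, 13.71 and 14.05 in GSK libraries 1 to 4. Every GSK library lay above every DMSO library of its day, by a narrow gap of 0.02 on day 8 and by 0.23 on day 14. Such a separation on both days was seen for 1.86% of all genes and for none of the other 9 members. The difference was 0.54 on day 8 (SE 0.19, 0.14 to 0.93, adjusted p = 0.172, limma) and 0.69 on day 14 (SE 0.16, 0.35 to 1.03, adjusted p = 0.0167). Over both days Il1b rose by 0.61 (SE 0.12, adjusted p = 0.00589). The difference between the days was 0.15 (-0.37 to 0.67, adjusted p = 0.880), an interval that holds both a smaller and a larger change on day 14.

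Among day 14 libraries with AY036118 high, Il1b differed by 0.60 without overlap, while a model term for the ribosomal RNA split gave a day 14 difference of 0.54 and no longer called (adjusted p = 0.0620). The call also ended without DMSO day 14 library 2 (0.62, adjusted p = 0.0583), without GSK day 14 library 1 (0.62, 0.0519) or without GSK day 14 library 4 (0.64, 0.0731). The mean of both days was called in each of the 13 other settings (0.49 to 0.78, adjusted p from 0.000854 to 0.0289) and without each library in turn (0.55 to 0.70, adjusted p from 0.00126 to 0.0230).

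Il1a (ENSMUSG00000027399), the membrane-bound and alarmin form of the cytokine, lies 54597 bases from Il1b and stood near the bottom of the kept range. Its log2 values on day 8 were 3.38, 3.00 and 3.12 in DMSO and 3.04, 3.21 and 3.11 in GSK libraries. On day 14 they were 3.31, 2.98, 3.06 and 2.92 in DMSO and 3.27, 3.43, 3.41 and 3.97 in GSK libraries, so the groups overlapped on both days. It passed the filter through 4 libraries, of which 3 were GSK day 14 and 1 was DMSO day 8, so its day 14 difference of 0.45 (SE 0.15, adjusted p = 0.0585) was favoured by the filter. Among libraries with AY036118 high it was 0.33, with overlap. An antisense gene, Gm14023, covers 222 bases of its exons on the other strand, and whether reads were counted by strand is not given in the sources used here.

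Il18 (ENSMUSG00000039217, chromosome 9), the other caspase-1 substrate, showed no separation of the full groups on either day. Its log2 values were 7.43, 7.62 and 6.70 in DMSO day 8, 7.26, 7.15 and 7.55 in GSK day 8, 7.84, 6.45, 7.52 and 7.16 in DMSO day 14 and 7.49, 7.17, 7.48 and 7.51 in GSK day 14. DMSO day 14 libraries spread widely, from 6.45 to 7.84, and the GSK libraries of that day fell within their range. The difference was 0.07 on day 8 (-0.54 to 0.69, adjusted p = 0.928) and 0.17 on day 14 (-0.36 to 0.70, adjusted p = 0.714). It turned to -0.27 among day 14 libraries with AY036118 high, without overlap, as GSK reached 7.51 and DMSO began at 7.52. The intervals over all libraries do not exclude a change of the size seen for Il1b.

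Il1rn (ENSMUSG00000026981, chromosome 2, 24336853 to 24351494, plus strand), the secreted antagonist that occupies the interleukin-1 receptor, differed in the direction of Il1b, by smaller values on both days. Its values were 11.03, 11.34 and 11.13 in DMSO day 8 and 11.27, 11.36 and 11.47 in GSK day 8. Its day 14 values were 11.58, 11.26, 11.26 and 11.44 in DMSO and 11.82, 11.85, 11.68 and 11.71 in GSK libraries. The groups overlapped on day 8 and were apart by 0.10 on day 14. The difference was 0.20 on day 8 (-0.09 to 0.49, adjusted p = 0.499) and 0.38 on day 14 (SE 0.12, 0.13 to 0.64, adjusted p = 0.0513), which was not called and was 0.35 without overlap among libraries with AY036118 high. Averaged over both days it was called at 0.29 (SE 0.09, adjusted p = 0.0440), a call that ended without any of 11 libraries in turn: all but DMSO day 8 library 2, GSK day 8 library 1 and DMSO day 14 library 1 (adjusted p up to 0.120, without GSK day 8 library 3).

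The log2 gap between the cytokine and its antagonist within a library was wider in the GSK groups on average. It was 1.77 ± 0.08 in DMSO day 8 (SD, n = 3), 2.10 ± 0.22 in GSK day 8 (n = 3), 1.85 ± 0.06 in DMSO day 14 (n = 4) and 2.15 ± 0.19 in GSK day 14 (n = 4). On day 14 the libraries ran from 1.78 to 1.90 in DMSO and from 1.95 to 2.34 in GSK, with no overlap. This gap was not tested, since Il1b itself sets much of it.

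Il1r2 (ENSMUSG00000026073, chromosome 1), the decoy receptor that binds interleukin-1 without signalling, was the member with a difference nearest to 0. Its values were 9.51, 10.37 and 9.49 in DMSO day 8, 10.25, 9.80 and 9.37 in GSK day 8, 9.98, 9.61, 9.23 and 9.65 in DMSO day 14 and 9.62, 9.68, 9.36 and 9.50 in GSK day 14. One library of each day 8 group stood high, DMSO library 2 and GSK library 1, and the groups overlapped on both days. The difference was 0.02 on day 8 (-0.51 to 0.55, adjusted p = 0.982) and -0.08 on day 14 (-0.54 to 0.38, adjusted p = 0.856; -0.06 with AY036118 high). The log2 gap between Il1b and this decoy was 3.62 in DMSO day 14 (3.43 to 3.93 over libraries) and 4.38 in GSK day 14 (4.13 to 4.55).

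Il18bp (ENSMUSG00000070427, chromosome 7), which encodes the secreted protein that binds and blocks interleukin-18, had groups apart on day 8 and not on day 14, though the difference between the days did not pass (-0.30, adjusted p = 0.743). Its values were 8.61, 8.75 and 8.53 in DMSO day 8 and 9.13, 8.87 and 9.29 in GSK day 8. Those of day 14 were 9.78, 8.88, 9.21 and 9.10 in DMSO and 9.31, 9.36, 9.44 and 9.53 in GSK libraries. Groups were apart on day 8, where the difference was 0.47 (SE 0.19, 0.06 to 0.87, adjusted p = 0.245), and overlapped on day 14, where it was 0.17 (-0.18 to 0.52, adjusted p = 0.555; -0.08 with AY036118 high). DMSO day 14 library 1 was the highest of all 14 for this gene. Il18 stood below Il18bp in every group, by 1.38 in DMSO day 8, 1.78 in GSK day 8 and 2.00 in both day 14 groups as a mean log2 difference.

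Il1rap (ENSMUSG00000022514, chromosome 16), the co-receptor shared by interleukin-1 and interleukin-33 signalling, was low. Its values were 3.85, 4.07 and 4.46 in DMSO day 8, 4.46, 4.46 and 4.78 in GSK day 8, 4.22, 4.22, 4.41 and 4.31 in DMSO day 14 and 4.33, 4.33, 4.47 and 4.56 in GSK day 14. Groups touched or overlapped on both days, and the difference was 0.44 on day 8 (SE 0.16, 0.09 to 0.79, adjusted p = 0.203) and 0.13 on day 14 (-0.17 to 0.43, adjusted p = 0.600; 0.11 with AY036118 high). Il1r1, the signalling receptor itself, did not pass the filter, with group means from 2.86 to 3.20.

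Casp1 (ENSMUSG00000025888, chromosome 9, 5298517 to 5307265, plus strand) had the largest day 14 difference of the 10 members, and on day 8 it was not called. On day 8 its log2 values were 5.50, 5.09 and 4.81 in DMSO and 4.58, 5.41 and 5.73 in GSK libraries, so the groups overlapped fully, with GSK library 1 the lowest of all. On day 14 they were 5.15, 4.87, 5.19 and 4.99 in DMSO and 6.26, 5.74, 6.20 and 6.54 in GSK libraries. Every GSK day 14 library lay above every other of the 14 libraries, by 0.01 over the highest GSK day 8 library and by 0.55 over the highest DMSO day 14 library. The rise on day 14 was 1.14 (SE 0.23, 0.65 to 1.63, 2.20-fold, adjusted p = 0.00974), against 0.11 on day 8 (SE 0.27, -0.46 to 0.67, adjusted p = 0.880).

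The direct test of a larger difference on day 14 gave 1.03 (SE 0.35, 0.28 to 1.78, unadjusted p = 0.0102), which did not pass over all genes (adjusted p = 0.511). In that comparison 0 of 10 members were called in limma (2, Casp1 and Il1a, at an unadjusted p under 0.05), where 0.00841% of all genes were called and 8.3% had an unadjusted p under 0.05. For Casp1 the value of 1.03 ranged from 0.46 to 1.03 in other settings and from 0.70 to 1.28 without 1 library, and was never called. The day 8 difference of Casp1 ranged from -0.02 to 0.62 in other settings. The day 14 rise of Casp1 was called in all 14 other settings (0.93 to 1.17, adjusted p from 0.00136 to 0.0415) and without each library in turn (1.02 to 1.29, adjusted p from 0.00277 to 0.0493), and among libraries with AY036118 high the groups were 1.01 apart without overlap. The mean of both days, 0.62 (SE 0.18, adjusted p = 0.0297), was less firm: its call ended without any of 8 libraries, which were DMSO day 8 library 3, GSK day 8 libraries 2 and 3, DMSO day 14 libraries 2 and 4 and GSK day 14 libraries 1, 3 and 4 (adjusted p from 0.0507 to 0.0953). No 31-base word of Casp1 occurs in another gene's transcripts.

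Adgre1 moved in the same libraries as Casp1. It rose by 0.70 on day 14 (SE 0.21, adjusted p = 0.0413) and differed by 0.27 on day 8 (adjusted p = 0.603). Over the 14 libraries, which share group structure and library quality, Casp1 and Adgre1 had a Pearson r of 0.90 and a Spearman correlation of 0.95. Il1b and Adgre1 had 0.83 and 0.83. Itgam, another pan-macrophage marker, went the other way, with -0.24 and -0.24 for Casp1 and -0.59 and -0.52 for Il1b. Correlations of these genes with the other markers of that list were not calculated. Of the 16 pan-macrophage markers 5 were called higher and 3 lower on day 14, where 5.10% of all genes were called higher and 5.73% lower. The mean of these markers was 12.28 (11.99 to 12.56) in DMSO and 12.51 (12.40 to 12.58) in GSK libraries. For 15 neutrophil markers with a row the mean was 4.78 (4.63 to 4.89) in DMSO and 4.70 (4.62 to 4.82) in GSK day 14 libraries, and none of the 9 kept was called on either day. The mean of 13 markers of 4T1 epithelium was 4.28 (4.15 to 4.48) and 4.06 (3.99 to 4.11). Of 7 monocyte markers, whose mean was 7.66 (7.48 to 7.78) in DMSO and 7.79 (7.62 to 7.86) in GSK day 14 libraries, 1 was called higher on day 14. Chil3, on that list and also a marker of alternative activation, had 6.28 ± 0.82 in DMSO and 8.00 ± 0.53 in GSK day 14 (SD, n = 4 each). The part of these lists in the rise of Casp1 and Il1b was not tested.

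Pycard (ENSMUSG00000030793, chromosome 7), the adaptor between sensor and caspase, differed upwards on both days without being called. Its values were 7.38, 7.94 and 8.18 in DMSO day 8, 8.10, 8.14 and 8.24 in GSK day 8, 8.09, 7.83, 8.07 and 7.82 in DMSO day 14 and 8.27, 8.27, 8.33 and 8.55 in GSK day 14. The day 14 groups were apart by 0.17, and the difference was 0.33 on day 8 (-0.05 to 0.71, adjusted p = 0.380), 0.40 on day 14 (SE 0.16, 0.07 to 0.73, adjusted p = 0.106; 0.27 without overlap with AY036118 high) and 0.37 over both days (adjusted p = 0.0504). An antisense gene, Gm45205, covers 485 bases of its exons, and 12.7% of its 31-base words occur on the other strand of another gene.

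Nlrp3 (ENSMUSG00000032691, chromosome 11), the sensor that responds to potassium efflux and many other forms of cell stress, had values of 6.95, 7.40 and 7.51 in DMSO day 8 and 7.61, 7.66 and 7.77 in GSK day 8. Day 14 gave 6.90, 8.29, 7.87 and 7.48 in DMSO and 7.84, 7.98, 7.76 and 8.19 in GSK libraries. Groups did not overlap on day 8 and overlapped on day 14, where DMSO held both the lowest and the highest library. The difference was 0.39 on day 8 (SE 0.26, -0.17 to 0.95, adjusted p = 0.486) and 0.31 on day 14 (-0.17 to 0.79, adjusted p = 0.413), and 0.56 with overlap among day 14 libraries with AY036118 high. Within a library Casp1 stood below Pycard by 2.90 (2.83 to 2.96 over libraries) in DMSO day 14 and by 2.17 (2.00 to 2.53) in GSK day 14, as log2 differences with no correction for length.

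The other genes of the pathway were read from a list of 50 ligands, receptors, signalling proteins, sensors, effectors and regulators. Of these 42 had a row, the other 8 were not analysed here, and 34 passed the filter. On day 14, 3 of the 34 were called higher and none lower: Casp4, Nlrc4 and Mefv, against a background of 5.10% higher and 5.73% lower. The 3 are 2 of the 6 sensors (Nlrc4 and Mefv) and 1 of the 13 effectors and regulators (Casp4). Of the other sensors, Naip5, Naip6 and Naip2 were not called, and Aim2, a sensor of cytosolic DNA, differed by -0.29 (adjusted p = 0.158). None of 4 receptors and 11 signalling genes was called in limma (0 at an unadjusted p under 0.05). Over the 34 genes 7 had an unadjusted p under 0.05, where 27.3% of all genes had. Differences between the roles were not tested. The median difference was 0.06 over the 34 genes and 0.00 over the signalling genes, beside 0.02 over all genes. On day 8 none of the 34 was called in limma, where 0.194% of all genes were. An unadjusted p under 0.05 was seen for 8, as for 16.3% of all genes, and the median was 0.12.

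**Figure D3:**
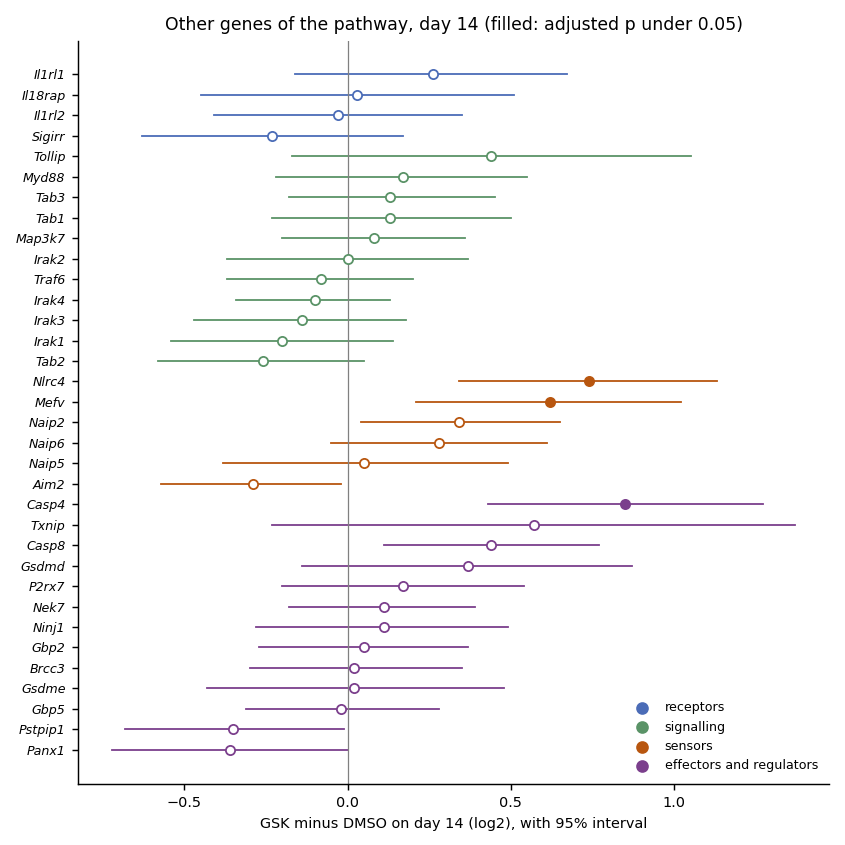
Log2 difference between GSK and DMSO on day 14 (x axis) for the 34 other pathway genes, coloured by role, with 95% intervals of the limma fit and filled points where the adjusted p is under 0.05. The filled points are Casp4 (0.85), Nlrc4 (0.74) and Mefv (0.62), and the signalling genes lie between -0.26 and 0.44.

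Casp4 (ENSMUSG00000033538, chromosome 9, 5308828 to 5336783, plus strand) encodes mouse caspase-11, which senses cytosolic lipopolysaccharide and cuts gasdermin D. Its values were 4.71, 5.08, 5.15 and 5.48 in DMSO day 14 and 5.72, 5.94, 5.96 and 6.21 in GSK day 14, with no overlap. It rose by 0.85 (SE 0.20, 1.80-fold, adjusted p = 0.0166), and by 0.65 over both days (adjusted p = 0.0115). Among libraries with AY036118 high the day 14 groups were 1.02 apart. It was no longer called with a model term for the ribosomal RNA split (0.78, adjusted p = 0.0630), without DMSO day 14 library 2 (0.84, 0.0525) or without GSK day 14 library 4 (0.77, 0.0778). Casp4 and its neighbour Casp1, whose promoters are both shown above, rose in the same comparison.

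Nlrc4 (ENSMUSG00000039193, chromosome 17), the sensor platform that joins NAIP proteins bound to bacterial flagellin or secretion-system proteins, had values of 5.56, 4.94, 5.26 and 4.78 in DMSO day 14 and 6.0, 5.50, 5.91 and 6.09 in GSK day 14. The ranges overlapped, as DMSO library 1 lay above GSK library 2, and the rise was 0.74 (SE 0.19, 1.67-fold, adjusted p = 0.0241). Over both days it was 0.68 (adjusted p = 0.00725). The day 14 call was lost when any of 5 libraries was left out: DMSO library 2 (0.67, adjusted p = 0.0760), DMSO library 4 (0.62, 0.0707), GSK library 1 (0.69, 0.0624), GSK library 3 (0.72, 0.0549) or GSK library 4 (0.66, 0.100), all of day 14. Among day 14 libraries with AY036118 high the groups overlapped, 0.46 apart, and the fit of only such libraries did not call Nlrc4 (adjusted p = 0.139). Nor was it called with a term for the ribosomal RNA split (0.58, adjusted p = 0.0953), with the 4T1 epithelium covariate (0.69, 0.0576) or without the filter (0.74, 0.0540).

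Mefv (ENSMUSG00000022534, chromosome 16) encodes pyrin, an inflammasome sensor that is mutated in familial Mediterranean fever in humans. Its values were 7.30, 7.29, 7.29 and 7.10 in DMSO day 14 and 7.91, 7.94, 7.67 and 7.93 in GSK day 14, with no overlap. It rose by 0.62 (SE 0.19, 1.53-fold, adjusted p = 0.0481), close to the threshold. The call ended without any 1 of the 8 day 14 libraries and without DMSO day 8 library 2 or 3 (adjusted p from 0.0508 to 0.144, at differences from 0.57 to 0.68). It ended too in 6 of the 14 other settings, among them a term for the ribosomal RNA split (0.47, adjusted p = 0.178) and the 4T1 epithelium covariate (0.52, 0.114). Among day 14 libraries with AY036118 high the groups were 0.57 apart without overlap. On day 8 GSK library 1 was the lowest of all for Mefv, at 6.71, as it was for Casp1.

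Gsdmd (ENSMUSG00000022575, chromosome 15), which encodes the pore-forming protein gasdermin D that caspase-1 and caspase-11 cut, was called only over both days, at 0.57 (adjusted p = 0.0459). Its values were 6.28, 7.12 and 7.19 in DMSO day 8 and 7.38, 7.53 and 8.01 in GSK day 8, a difference of 0.77 (adjusted p = 0.181) without overlap. On day 14 they were 8.38, 7.30, 7.74 and 7.38 in DMSO and 8.12, 7.96, 7.99 and 8.19 in GSK, a difference of 0.37 (adjusted p = 0.342), which was 0.01 among libraries with AY036118 high. The call over both days ended without any of 10 libraries: all but DMSO day 8 libraries 2 and 3, GSK day 8 library 1 and DMSO day 14 library 1 (adjusted p from 0.0543 to 0.135, and 0.42 in place of 0.57 without DMSO day 8 library 1). Over both days 3 of the 34 pathway genes were called, all higher (Nlrc4, Casp4 and Gsdmd), where 6.73% of all genes were called higher and 7.77% lower.

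**Figure D4:**
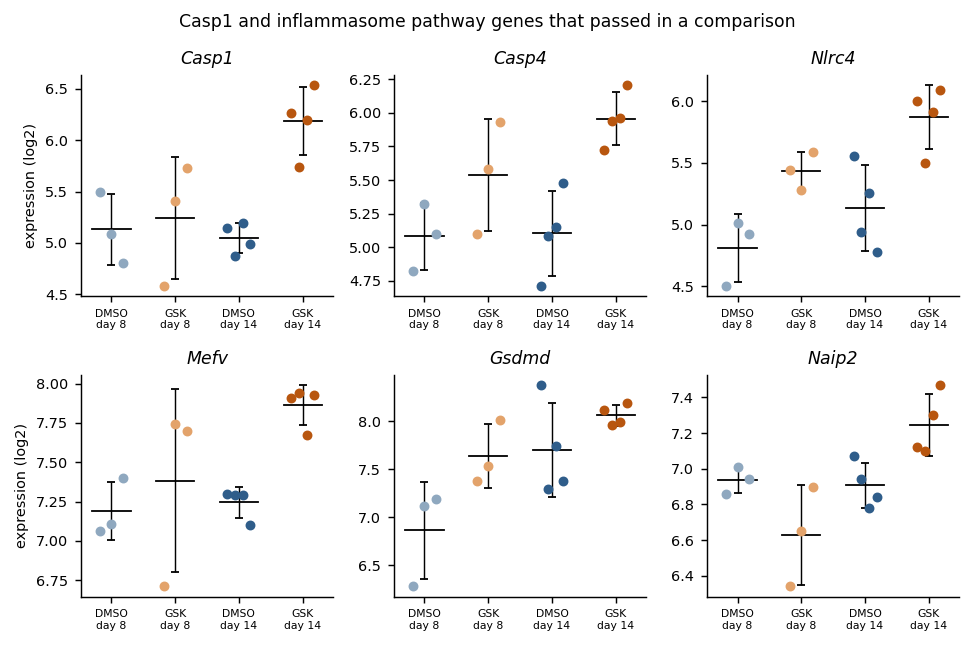
Expression (authors' log2 values, y axis, own scale per panel) of Casp1 and of the 5 pathway genes called in any comparison, by library and group. Points are libraries, horizontal lines group means and bars the SD. GSK day 14 libraries lie above DMSO day 14 for Casp1, Casp4, Mefv and Naip2, and overlap them for Nlrc4 and Gsdmd.

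The days were then compared within each pre-treatment. In tumours of DMSO cells none of the 10 members was called in limma, where 0.824% of all genes were, and 1 (Il18bp, 0.61, SE 0.18, adjusted p = 0.116) had an unadjusted p under 0.05, as had 15.4% of all genes. In tumours of GSK cells Casp1 was the 1 member called, higher on day 14, where 3.05% of all genes were called higher and 3.95% lower. It rose by 0.95 from day 8 to day 14 (SE 0.25, 0.42 to 1.48, 1.93-fold, adjusted p = 0.0349), beside -0.08 (-0.61 to 0.45, adjusted p = 0.909) in DMSO. Il1rn (0.40, adjusted p = 0.0697), Il1a (0.40, 0.133) and Il1b (0.45, 0.120) were not called. These comparisons share libraries with those between pre-treatments and are no separate evidence.

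The change of Casp1 over time leaned on GSK day 8 library 1: without it the difference was 0.62 (adjusted p = 0.236). Also decisive for the call were GSK day 8 library 2 (1.03 without it, adjusted p = 0.0668) and GSK day 14 libraries 1 (0.92, 0.0797), 3 (0.94, 0.0668) and 4 (0.83, 0.120). In the same libraries the mean of the 4T1 epithelium markers was 5.26 (4.65 to 5.73) on day 8 and 4.06 (3.99 to 4.11) on day 14, with 7 of 9 kept markers called lower, while the monocyte mean was 7.39 and 7.79 with 2 of 7 called higher. With that mean as a covariate the difference of Casp1 was -0.22. Among other pathway genes Naip2 (ENSMUSG00000078945), a receptor for bacterial secretion-system rods that acts with Nlrc4, was called over time in GSK tumours at 0.62 (SE 0.16, adjusted p = 0.0307). Other genes hold 32.7% of its 31-base words, so its reads may be split among Naip copies, and its call ended without the same 5 libraries (adjusted p from 0.0572 to 0.196).

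Across the 14 libraries the members did not vary as 1 block. Il1b and Il1rn ran closest together by the values themselves (Pearson r = 0.92, Spearman correlation 0.93). For deviations from group means they had r = 0.74, which was not the highest. Il1b had r = 0.81 with Pycard, 0.80 with Casp1, 0.46 with Nlrp3, 0.35 with Il18 and -0.19 with Il1r2. Il18 and Il18bp had r = 0.56, and 0.81 for deviations from group means, the highest of the member pairs on that measure. Il1rap and Pycard had r = 0.78, and 0.80 for deviations. Points in these correlations share their groups and library quality, so they are descriptions. Of 10439 named genes the 5 most like Il1b by Pearson correlation over the 14 libraries were Fgfr1op2 (Pearson r = 0.947, Spearman correlation 0.912), Synj1 (0.934, 0.925), Zmynd11 (0.928, 0.921), Vdr (0.925, 0.908) and Fmnl2 (0.924, 0.916). For deviations from group means their r with Il1b was 0.893, 0.662, 0.703, 0.689 and 0.596. All 5 were themselves called higher on day 14, by 0.45, 0.82, 0.53, 0.85 and 0.94, where 5.10% of all genes were. Choosing genes by likeness to Il1b, itself called higher on that day, favours such calls, so they are no separate evidence.

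**Figure D5:**
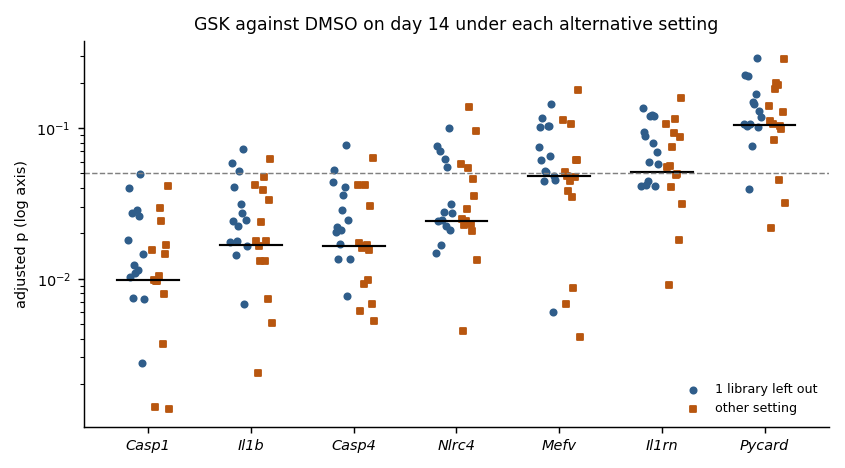
Adjusted p (y axis, log scale) of the GSK against DMSO difference on day 14 for 7 genes under each alternative setting: circles leave out 1 library, squares change another choice, and the horizontal line is the value reported. All symbols of Casp1 lie under the dashed threshold of 0.05, while those of Il1b, Casp4, Nlrc4 and Mefv lie on both sides of it.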

How the data were processed

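The deposited table holds log2 expression values per gene, made by the authors; per the submitters' processing notes the tools were Bowtie2, RSEM 1.2.29 and DESeq2 1.12.4 and the builds mm10 and GRCh38, with no role or order given. The transformation is not given in the sources used here, no counts were used, and 0 columns lacked a sample. Names and coordinates come from GENCODE M21 (GRCm38), which matched 24483 of 24556 identifiers.

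Genes with an unlogged value of at least 10 (log2 of 3.32) in at least 3 libraries were kept, which left 11886. limma 3.58.1 in R 4.3.3 fitted 4 group means to all 14 libraries with an empirical Bayes trend. Two-sided p-values were adjusted (Benjamini-Hochberg) within each of the 6 comparisons over all kept genes, and the fit was tested on simulated data. Named were all members, the pathway genes past the threshold in any comparison and the 5 genes most like Il1b. Il1r1, Aim2, the other Naip genes and the marker genes with values were named after their values were seen. The members and lists were chosen with earlier results of these data known. Transcripts of each gene were compared with those of all others by 31-base words. Alternatives were a pseudocount of 10, no filter, a minimum of 50, TMM rescaling without weights, quantile normalisation, no trend, quality weights, a replicate block, a fit of the groups compared alone, marker or ribosomal RNA terms, only libraries with AY036118 high, and leaving out each library. A fit that left out library 1 of both day 8 groups together was added after the data were seen. Proteins were not analysed here.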

Additional observations from a re-analysis of the deposited data

Results flagged for a closer look

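In 30 groups of 4 libraries, 10 members and 5 pathway genes on day 14, 3 libraries stood apart from the other 3 of their group, with a gap to the nearest library above 0.829 of the group's range. By chance about 1 in 20 groups would. For Il18, GSK day 14 library 2 was lowest at 7.17, with the nearest at 7.48. For Mefv, DMSO day 14 library 4 was lowest at 7.10, with the nearest at 7.29, and GSK day 14 library 3 was lowest at 7.67, with the nearest at 7.91. The Mefv groups stay apart with all of these libraries included.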

How the results depend on the processing

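Of 43 gene results, values under other settings or without 1 library kept their direction and their side of the threshold 1013 times, lost the call 101 times, gained it 32 times and turned direction 36 times. On day 14 the 2 members called became 5 with quality weights, and also 5 without library 1 of both day 8 groups together. They became 4 when fitting only the compared groups and 1 with the ribosomal RNA term (1 to 5 without 1 library). The 3 pathway genes became 1 without the filter or with the 4T1 epithelium covariate, 5 with quality weights and 0 with the ribosomal RNA term (0 to 4 without 1 library). Over both days the 3 members became 1 without the filter or with the ribosomal RNA term (1 to 5), and the 3 pathway genes became 5 with a minimum of 50 or the 4T1 covariate, 7 with weights and 1 with the ribosomal RNA term (2 to 5). On day 8 only the libraries with AY036118 high gave a pathway call, 1 in place of 0. For day 14 against day 8 in GSK, the 1 member became 2 with quantile normalisation or only the groups compared, 4 with weights and 0 without the filter, with the 4T1, neutrophil or ribosomal RNA terms, with AY036118 high or without the first day 8 libraries (0 to 1 without 1 library). The 1 pathway gene became 9 with weights and 0 without the filter, with the 4T1 or ribosomal RNA term, with AY036118 high or without the first day 8 libraries (0 to 4). Calls over all 11886 genes moved with the setting too. On day 14 they were 606 higher and 681 lower in the reported fit. They were 1209 and 1164 with weights, 1058 and 1031 without the first day 8 libraries and 173 and 189 with the ribosomal RNA term. Over time in GSK they were 363 and 470 in the reported fit, and 1697 and 1826 with weights. The shifts are therefore no result about these genes in particular. Their cause was not tested.

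With the replicate number as a block the calls were 2 members and 2 pathway genes on day 14 and over both days, and 0 of either over time in GSK; the calls of Mefv on day 14, of Il1rn and Gsdmd over both days and of Casp1 and Naip2 over time ended. Same-numbered libraries deviated together at r from -0.156 to 0.171, so the numbers were not taken as pairs.

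Small differences turned. On day 8, Il1a was 0.07 with weights, 0.01 with the 4T1 covariate, 0.16 with AY036118 high and 0.10 without the first libraries (-0.13 to 0.06 without 1 library). Il1r2 was -0.05 with weights, -0.14 and -0.09 with the 4T1 and neutrophil covariates, -0.78 with AY036118 high and -0.34 without the first libraries (-0.21 to 0.30). Il18 was -0.11 with the ribosomal RNA term and -0.27 with AY036118 high on day 8 (-0.20 to 0.26), on day 14 (-0.10 to 0.37) and over both days (-0.02 to 0.22). Casp1 was -0.02 on day 8 with the ribosomal RNA term (-0.14 to 0.44). Its larger difference over time in GSK, 0.95, was -0.22 with the 4T1 covariate, a fit that cannot tell that mean from the day. Il1r2 was 0.00 with quantile normalisation and 0.01 with the 4T1 covariate on day 14 (-0.21 to 0.04), and 0.02 with quantile normalisation over both days (-0.14 to 0.11). Il18bp was -0.08 on day 14 with AY036118 high. Il1a and Il1rap have no value with a minimum of 50, and a fit of only the compared groups gives none over both days. With AY036118 high, DMSO day 8 has 1 library, assumed to vary like the other groups. Depth is unknown, so the counting error of low members such as Il1a could not be given.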
